A study of Mus musculus with 8 samples.

Results

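The data describe 41 interferon-stimulated genes in the liver cells of mice with diet-induced nonalcoholic steatohepatitis (NASH). The genes were taken by symbol from a list of well-known interferon targets. The rule itself uses no measured value, but the list was drawn up with earlier results of these data known. All 41 were found among the 55450 genes of the count matrix. All 8 mice were wild-type C57BL/6. The 2 control mice received a normal diet and plain water, 3 mice received a high-fat diet with fructose solution and intraperitoneal carbon tetrachloride (HFD+F+CCl4), and 3 received a western diet with the same solution and injections (WD+F+CCl4). Diet, fructose and carbon tetrachloride were given together for the same number of weeks, so their separate effects cannot be told apart, and the labels give no age. Each mouse was 1 library of droplet-based single-cell RNA sequencing from an enzymatically dissociated whole liver, after red cell lysis and removal of dead cells.

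Interferons are secreted proteins that cells release on sensing viral nucleic acid or on immune activation. Type I interferons act through a receptor whose signal reaches a transcription factor complex that contains STAT2 and IRF9 and binds a DNA element called the interferon-stimulated response element (ISRE). Interferon-gamma, made mainly by T and NK cells, acts on genes with a DNA element called the gamma-activated site (GAS), and it induces IRF1 and the large families of guanylate-binding proteins (GBP) and immunity-related GTPases (IRG). The targets include proteins that bind viral RNA (the IFIT proteins), block viral entry or release at membranes (the IFITM proteins and BST2), sense foreign RNA or DNA (the 2'-5' oligoadenylate synthetases, protein kinase R, MDA5 and ZBP1), or conjugate the ubiquitin-like modifier ISG15. In the liver, macrophages, dendritic cells and endothelial cells all respond to interferon.

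A promoter sequence was found in the RefSeq table of GRCm38.p6 for 33 of the 41 genes, taken here as the 250 bases before the RefSeq start. The other 8 (Ifi27l2a, Ifi204, Oas2, Mx1, Mx2, Usp18, Zbp1 and Rtp4) had no entry. The ISRE core, here GAAA followed by any 2 bases and a further GAAA on either strand, was present in 17 of the 33 promoters (51.5%) against 3.46% of the promoters of all genes in the table. The palindromic GAS core TTCNNNGAA was present in 10 (30.3%) against 8.13% of all genes, 5 promoters had both and 11 had neither. By role, 6 of the 7 GBP and IRG promoters held the ISRE core and 3 held the GAS core. A match is a description of the letters, not a measured binding site. The promoters printed here belong to 8 genes with a table entry that passed the test in the most comparisons. The last of them, Bst2, passed in 2 and was taken for its higher UMI total over Cmpk2, Gbp7, Oasl2 and Stat2, which passed in as many. Capitals mark the matches to either core.

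The promoters of Igtp (chr11:58199306-58199555, + strand), Irgm1 (chr11:48871421-48871670, - strand) and Gbp5 (chr3:142496684-142496933, + strand) belong to GTPases that act against intracellular pathogens. Igtp held 1 ISRE core and 1 GAS core, Irgm1 held 2 overlapping ISRE cores, and Gbp5 held 1 ISRE core, read on the opposite strand as TTTCAATTTC, and 2 GAS cores.
Igtp: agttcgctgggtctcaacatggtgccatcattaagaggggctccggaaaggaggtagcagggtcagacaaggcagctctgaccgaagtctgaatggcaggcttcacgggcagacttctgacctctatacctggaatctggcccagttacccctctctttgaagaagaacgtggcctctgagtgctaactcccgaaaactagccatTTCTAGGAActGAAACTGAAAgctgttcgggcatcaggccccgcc
Irgm1: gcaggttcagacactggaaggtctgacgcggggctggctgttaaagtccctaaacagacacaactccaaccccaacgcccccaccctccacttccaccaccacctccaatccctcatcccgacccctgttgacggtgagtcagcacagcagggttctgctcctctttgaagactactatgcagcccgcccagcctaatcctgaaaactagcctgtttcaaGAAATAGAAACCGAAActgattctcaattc
Gbp5: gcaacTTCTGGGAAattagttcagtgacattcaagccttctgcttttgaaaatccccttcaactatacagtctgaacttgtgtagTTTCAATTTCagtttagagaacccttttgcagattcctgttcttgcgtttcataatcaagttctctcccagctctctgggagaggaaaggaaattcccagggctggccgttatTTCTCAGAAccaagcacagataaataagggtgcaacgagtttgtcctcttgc

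The promoter of Irf1 (chr11:53769764-53770013, + strand), a transcription factor of the interferon-gamma response, held the GAS core alone, from 90 to 82 bases before the start.
Irf1: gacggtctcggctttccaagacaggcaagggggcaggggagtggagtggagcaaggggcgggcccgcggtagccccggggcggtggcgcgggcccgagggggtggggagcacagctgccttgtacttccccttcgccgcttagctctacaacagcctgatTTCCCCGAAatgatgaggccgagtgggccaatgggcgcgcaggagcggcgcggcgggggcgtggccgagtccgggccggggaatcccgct

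The 3 Ifitm promoters lie on the - strand of 1 stretch of chromosome 7, those of Ifitm2 at chr7:140955962-140956211, Ifitm3 at chr7:141010745-141010994 and Ifitm6 at chr7:141016893-141017142. The other membrane restriction factor, Bst2, encodes tetherin, which holds budding virus at the cell surface, and its promoter lies at chr8:71537473-71537722 on the - strand. Ifitm2 held 1 ISRE core, Ifitm6 held 1 GAS core within 10 bases of the start, Ifitm3 held neither, and Bst2 held 2 ISRE cores and 1 GAS core that overlap.
Ifitm2: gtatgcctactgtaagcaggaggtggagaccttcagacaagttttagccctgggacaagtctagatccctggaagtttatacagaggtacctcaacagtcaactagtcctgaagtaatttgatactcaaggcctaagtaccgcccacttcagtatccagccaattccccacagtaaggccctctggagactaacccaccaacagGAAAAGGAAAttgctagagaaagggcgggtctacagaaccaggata
Ifitm3: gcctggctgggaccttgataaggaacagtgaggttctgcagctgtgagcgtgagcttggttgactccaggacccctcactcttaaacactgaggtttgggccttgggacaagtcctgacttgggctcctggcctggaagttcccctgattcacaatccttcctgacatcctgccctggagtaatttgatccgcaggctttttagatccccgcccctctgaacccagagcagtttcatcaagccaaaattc
Ifitm6: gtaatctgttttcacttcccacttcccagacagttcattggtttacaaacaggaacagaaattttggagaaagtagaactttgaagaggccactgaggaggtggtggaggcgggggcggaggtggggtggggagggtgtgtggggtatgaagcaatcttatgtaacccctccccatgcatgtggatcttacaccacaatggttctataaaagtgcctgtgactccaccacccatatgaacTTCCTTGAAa
Bst2: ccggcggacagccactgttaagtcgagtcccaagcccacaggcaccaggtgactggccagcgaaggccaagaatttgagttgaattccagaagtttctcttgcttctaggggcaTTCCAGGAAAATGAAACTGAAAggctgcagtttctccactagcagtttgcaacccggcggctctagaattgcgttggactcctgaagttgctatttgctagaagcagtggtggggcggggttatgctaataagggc

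Of 88581 barcodes, 80474 passed the filters of more than 500 genes and under 25% mitochondrial UMIs (unique molecular identifiers, here the count of RNA molecules). The libraries held 6135827 to 64855024 UMIs, and control replicate 2 stood apart from the other 7, with 4168 kept cells and a median of 992.5 UMIs per cell against 2397 to 4278. Only 8 to 46 barcode sequences were shared by any pair of mice. Cells were clustered without the 41 genes and without 88 other genes of the interferon pathway, and clusters were named from marker genes, which is why the names carry the ending "-like". The cells of 8 types came from both controls and from mice of both models and were tested: monocyte/macrophage-like, conventional and plasmacytoid dendritic cell (DC)-like, neutrophil-like, T/NK-like, B-like, endothelial-like and cholangiocyte-like cells. WD+F+CCl4 replicate 1 had too few endothelial-like and cholangiocyte-like cells and was left out there. Kupffer-like, patrolling monocyte-like, erythroid-like and stellate/fibroblast-like cells were described but not tested, because at most 1 control mouse had enough of them, and hepatocyte-like clusters were not analysed here. For each mouse and cell type the UMIs were summed and expressed as CPM, the count scaled to a common total of 1000000 UMIs, so that the mouse is the replicate.

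Of the 12 cell types described, monocyte/macrophage-like cells had the largest share of their RNA in the 41 genes. Their summed level was 10874 ± 3914 CPM (mean ± SD over mice, n = 8), followed by neutrophil-like cells at 7913 ± 2484 CPM (n = 8), conventional DC-like cells at 6351 ± 2088 CPM (n = 8), stellate/fibroblast-like cells at 6276 ± 258 CPM (n = 2) and plasmacytoid DC-like cells at 6236 ± 1476 CPM (n = 8). Kupffer-like cells at 5931 ± 1059 CPM (n = 5) and endothelial-like cells at 5929.7 ± 1174 CPM (n = 7) lay within 1 SD of the dendritic cells. Erythroid-like cells were at 5388 ± 999 CPM (n = 4) and patrolling monocyte-like cells at 5138 ± 2027 CPM (n = 7). T/NK-like cells at 3483 ± 706 CPM (n = 8), B-like cells at 2854 ± 1251 CPM (n = 8) and cholangiocyte-like cells at 2853 ± 720 CPM (n = 7) formed the low end and overlapped each other. The means are not over the same mice. Stellate/fibroblast-like values came only from HFD+F+CCl4 replicates 1 and 2. Kupffer-like and erythroid-like values held no control mouse. These types and the endothelial-like and cholangiocyte-like cells lacked WD+F+CCl4 replicate 1, so the order of the types is not like for like. The single genes did not all follow that order. Ifitm3 averaged 3577 CPM in monocyte/macrophage-like cells and 493 CPM in T/NK-like cells, whereas Ifitm2 was highest in neutrophil-like cells at 1502 CPM. Bst2 averaged 2108 CPM in plasmacytoid DC-like cells, against 511 CPM in endothelial-like cells, the next highest type. It had the highest mean of the 41 genes in plasmacytoid DC-like cells and made up a large part of their sum of 6236 CPM. Ifi27l2a, a small interferon-induced protein, averaged 2068 CPM in monocyte/macrophage-like cells and 1098 CPM in plasmacytoid DC-like cells. Among the transcription factors, Irf7, the master regulator of type I interferon production, averaged 282 CPM in Kupffer-like, 250 CPM in monocyte/macrophage-like and 219 CPM in plasmacytoid DC-like cells, and Irf1 was highest in neutrophil-like cells at 222 CPM. The GTPases Ifi47 and Gbp7 had their highest means in T/NK-like cells, 186 and 144 CPM. Oasl2, of the oligoadenylate synthetase family, and Rsad2, which encodes the antiviral enzyme viperin, were highest in neutrophil-like cells at 280 and 226 CPM.

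**Figure D1:**
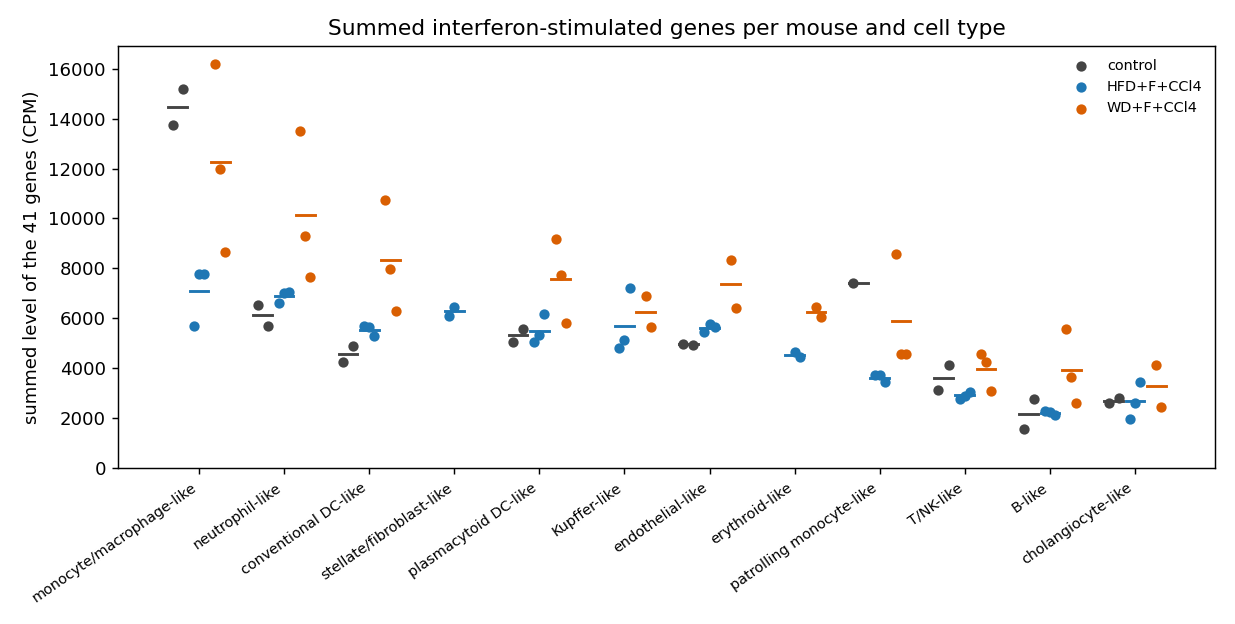
Summed level of the 41 interferon-stimulated genes in CPM for each mouse (points) in each cell type, by group, with the group mean as a bar. Monocyte/macrophage-like cells were lowest in HFD+F+CCl4 replicate 1, at 5672 CPM, and highest in WD+F+CCl4 replicate 1, at 16181 CPM. That mouse was also highest in the 6 other types in which it had enough cells.

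The sum hid opposite shifts of single genes. In monocyte/macrophage-like cells it was 13742 and 15176 CPM in the controls, 5672, 7786 and 7787 CPM in the HFD+F+CCl4 mice, and 16181, 11991 and 8653 CPM in the WD+F+CCl4 mice, so the control values lay above all HFD+F+CCl4 values and inside the WD+F+CCl4 range. In T/NK-like cells the controls at 3129 and 4109.6 CPM lay among the NASH mice, which ranged from 2775 to 4571 CPM. In conventional DC-like cells the controls at 4235 and 4904 CPM lay below every NASH mouse, which ranged from 5305 to 10738 CPM. Within monocyte/macrophage-like cells, most cells held UMIs from the list of 41 genes. The count per cell is a sum to which abundant genes add most. Control replicate 1 had 10046 UMIs of Ifitm3 and 156 of Igtp in these cells, and Ifitm3 had the most UMIs in every mouse. How each single gene was spread over the cells was not tested. After each cell was thinned to 500 UMIs, a cell held on average 6.72 and 7.63 UMIs of the 41 genes in the controls, 3.01 to 3.89 in HFD+F+CCl4 and 4.51 to 8.24 in WD+F+CCl4. Cells without any of these UMIs made up 1.73% to 1.75% in the controls, 7.82% to 11.8% in HFD+F+CCl4 and 0.649% to 4.82% in WD+F+CCl4. Before thinning no mouse had more than 0.578% of such cells.

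NASH against control asked how the diet models moved these genes within a cell type. The mean of both models was compared with the controls by edgeR's quasi-likelihood test, with Benjamini-Hochberg adjustment over all genes tested in that type and a threshold of 0.05. Groups without overlap were common over all genes. Every NASH mouse lay below both controls for 16.1% of all genes in monocyte/macrophage-like, 17.9% in T/NK-like and 15.5% in conventional DC-like cells. The shares were 11.1% in plasmacytoid DC-like and 17.4% in B-like cells. Above both controls they were 24.0%, 12.2%, 16.3%, 6.97% and 6.24% in the same order. The lower calls fell mainly on the GBP and IRG GTPases and Irf1, and the higher calls on Ifitm2, Ifitm3 and the oligoadenylate synthetase family in conventional DC-like and B-like cells. Igtp and Irf1 had negative log2 fold changes in all 8 types, as did Gbp2, Irgm1, Ifi47 and Cmpk2, and Irf7 and Oasl2 had positive ones in all 8. In this comparison of the mean of both models, Irf1 passed the test as lower in 5 types, Igtp in 4 and Irf7 in 0. The calls depended on both controls. Without control replicate 1 the genes called numbered 0 in monocyte/macrophage-like, 1 in conventional DC-like, 4 in plasmacytoid DC-like, 0 in neutrophil-like, 1 in T/NK-like, 1 in B-like and 0 in cholangiocyte-like cells, and without control replicate 2 they numbered 2, 0, 1, 1, 3, 12 and 0. Igtp in T/NK-like cells and Ifi204 in B-like cells were called without either one.

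**Figure D2:**
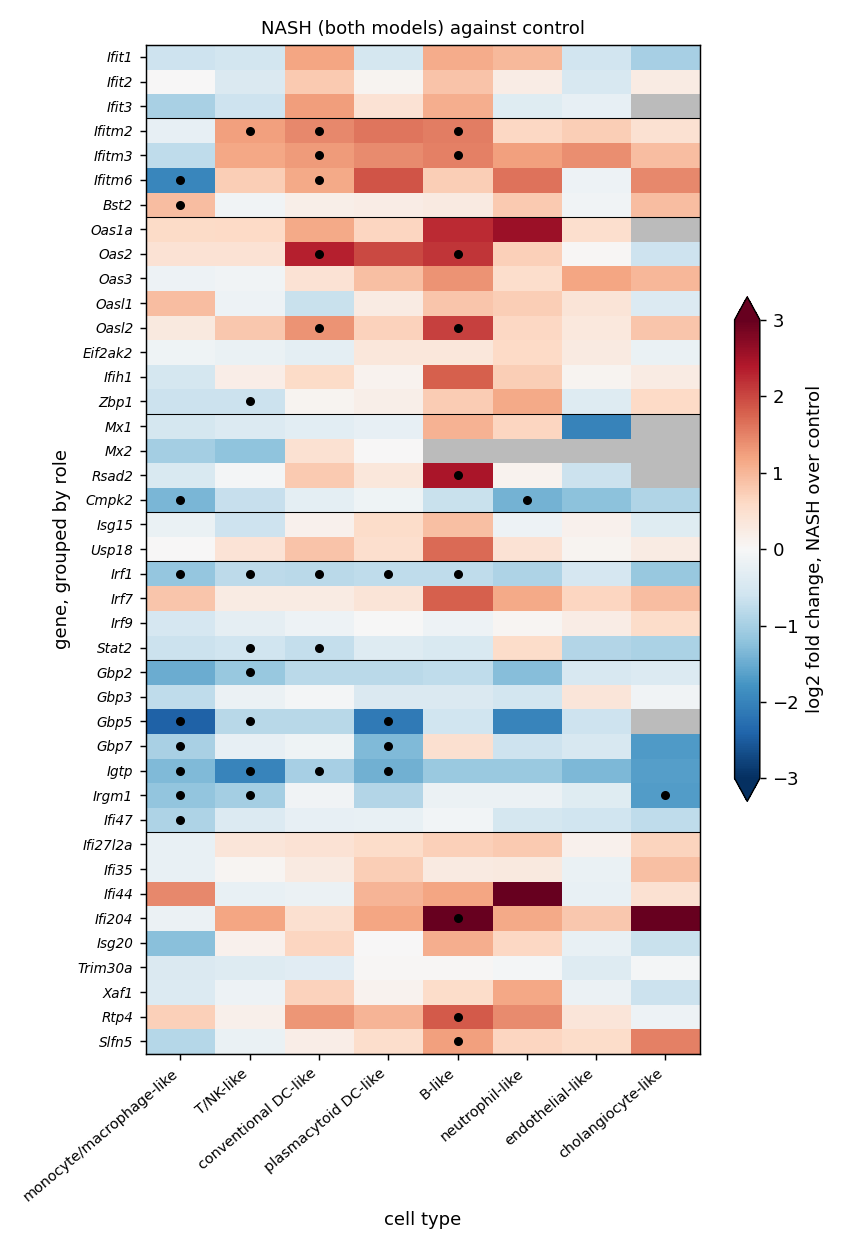
Log2 fold change of each of the 41 genes (rows, by role) in NASH against control for the 8 tested cell types (columns), with red for higher and blue for lower in NASH and marks for an adjusted p under 0.05. The block of GBP and IRG GTPases is blue in nearly all columns, with Igtp between -1.98 and -0.99, whereas B-like cells are mostly red.

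In monocyte/macrophage-like cells 1 of the 41 genes was higher and 8 were lower in NASH, against 5.42% of all genes tested called higher and 4.95% called lower. The 8 were 5 of the 7 GBP and IRG GTPases together with Irf1, Cmpk2 and Ifitm6. The median log2 fold change of the 41 genes was -0.51, beside 0.11 over all genes tested in these cells.

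Igtp, an IRG GTPase of vesicle membranes, stood at 87.5 and 95.2 CPM in the controls, at 29.3, 28.9 and 30.7 CPM in HFD+F+CCl4 and at 43.9, 36.2 and 35.4 CPM in WD+F+CCl4. Every NASH mouse lay below both controls, and Igtp fell by 1.34 on the log2 scale (SE 0.161, adjusted p = 0.00271). Gbp5, a GTPase that promotes inflammasome assembly, stood at 80.2 and 114 CPM in the controls, 14.6, 10.8 and 32.8 CPM in HFD+F+CCl4 and 8.53, 15.8 and 15.1 CPM in WD+F+CCl4, again without overlap, and fell by 2.42 (SE 0.447, adjusted p = 0.011). Irgm1, a regulator of the other IRG proteins, was at 139.7 and 181 CPM in the controls and between 51.8 and 95.5 CPM in the NASH mice, and it fell by 1.18 (adjusted p = 0.0108). Gbp7 and Ifi47 fell by 0.97 (adjusted p = 0.0108) and 0.93 (adjusted p = 0.0232). The 7 GBP and IRG genes together were at 919 and 1081 CPM in the controls and between 329.9 and 478 CPM in the 6 NASH mice.

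Irf1 was at 218 and 199.9 CPM in the controls, 123, 75.5 and 96.4 CPM in HFD+F+CCl4 and 73.3, 77.8 and 85.7 CPM in WD+F+CCl4. All NASH mice lay below the controls and Irf1 fell by 1.17 (SE 0.195, adjusted p = 0.00805). Cmpk2, a mitochondrial nucleotide kinase whose gene neighbours Rsad2, fell by 1.38 (adjusted p = 0.0181), from 53.3 and 61.9 CPM to between 14 and 36.2 CPM. Ifitm6 was at 697 and 714 CPM in the controls and between 40.02 and 339 CPM in NASH, and fell by 1.96 (adjusted p = 0.0343). Bst2 rose by 0.92 (adjusted p = 0.0342), from 185 and 214 CPM to between 245 and 502 CPM. Ifitm3 was at 5635 and 4860 CPM in the controls, 1267, 2316 and 2603 CPM in HFD+F+CCl4 and 5345, 3839.6 and 2754 CPM in WD+F+CCl4, so its controls overlapped with the WD+F+CCl4 mice.

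Most monocyte/macrophage-like cells of the controls (379 and 165) fell in 1 cluster, led by the monocyte genes Vcan and Chil3 and with Ifitm6 among its leading genes, whereas most of the NASH cells fell in another, led by Ms4a7, the C1q genes and Trem2. The comparison was therefore repeated within the first cluster alone, a choice made after seeing the data. There 12 of the 41 genes were lower and 0 were higher, against 4.74% of all genes lower and 4.66% higher. Igtp fell by 1.63 and Gbp5 by 2.19 within it, and Gbp2, Gbp3, Stat2, Irf9 and Slfn5 were lower as well. Ifitm6 (log2 fold change -0.46, adjusted p = 0.134) and Bst2 (0.13, adjusted p = 0.805) did not pass there. The 13 monocyte/macrophage markers themselves summed to 33565 to 34589 CPM in control and 19555 to 23219 CPM in NASH cells of the class. The summed level of 18 liver-secreted genes, which hepatocytes make, was 2308 to 2689.6 CPM in control and 269 to 1329.9 CPM in NASH monocyte/macrophage-like cells, and that of 12 T/NK markers was 139 to 409 and 47 to 72.2 CPM, and their part in these results was not tested.

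In T/NK-like cells 1 of the 41 genes was higher and 7 were lower, against 7.1% and 6.96% of all genes tested. Igtp, Gbp2, Irgm1 and Gbp5 accounted for 4 of the 7 lower genes. Igtp was at 215 and 194 CPM in the controls, 52.5, 47.2 and 62.4 CPM in HFD+F+CCl4 and 45.6, 42.7 and 41.8 CPM in WD+F+CCl4. Every NASH mouse lay below both controls, and Igtp fell by 1.98 (SE 0.147, adjusted p = 0.000248), the largest change of the 41 genes to pass in these cells. Gbp2 was at 116 and 97.6 CPM in the controls, 48.8, 45.3 and 65.7 CPM in HFD+F+CCl4 and 30.9, 39.9 and 47.8 CPM in WD+F+CCl4, without overlap, and fell by 1.13 (SE 0.196, adjusted p = 0.00746). Irgm1 fell by 1.02 (adjusted p = 0.0126) and Gbp5 by 0.83 (adjusted p = 0.0389). The 7 GTPases together stood at 907 and 870.2 CPM in the controls and between 417 and 541 CPM in NASH.

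Irf1 in T/NK-like cells was at 198 and 229 CPM in the controls, 169.6, 114 and 111 CPM in HFD+F+CCl4 and 85.8, 95.9 and 123 CPM in WD+F+CCl4, below both controls in all NASH mice, and fell by 0.79 (SE 0.17, adjusted p = 0.0166). The DNA and RNA sensor Zbp1 fell by 0.65 (adjusted p = 0.0496) and Stat2, a transcription factor of the type I response, fell by 0.59 (adjusted p = 0.0237). Ifitm2 was at 66.1 and 133 CPM in the controls, 135, 171 and 249 CPM in HFD+F+CCl4 and 247, 262 and 184 CPM in WD+F+CCl4, and rose by 1.23 (SE 0.314, adjusted p = 0.0317). The highest control and the lowest NASH mouse were close together.

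The summed level of 13 monocyte/macrophage markers in T/NK-like cells was 1470.1 to 2268 CPM in control and 3332 to 5039 CPM in NASH mice. Without likely doublets, 0 of the 41 genes were higher and 9 were lower, and the log2 fold change of Ifitm2 was 0.18 (adjusted p = 0.776), whereas Igtp still fell by 1.93 (adjusted p = 0.000673). Most control cells fell in 1 T/NK-like cluster, with 3921 and 812 cells from the controls and 3 to 49 from each NASH mouse. Within the other main cluster, led by Cd8a, Pdcd1 and Tox, which held 195 and 78 control cells, 3 genes passed: Igtp fell by 2.10 (adjusted p = 0.00181), Gbp2 fell by 1.62 (adjusted p = 0.0159) and Ifitm2 rose by 2.32 (adjusted p = 0.0248). There 0.462% of all genes tested were lower and 0.939% were higher. The dissociation-response list of 10 genes was at 388 to 461 CPM in control and 505 to 4213 CPM in NASH T/NK-like cells, highest in HFD+F+CCl4 replicate 1, and its part was not tested.

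Conventional DC-like cells combined both directions, with 5 of the 41 genes higher and 3 lower, against 4.36% and 5.25% of all genes tested. The 3 Ifitm genes were among the 5. Ifitm2 was at 304 and 280 CPM in the controls, 605, 678 and 819.5 CPM in HFD+F+CCl4 and 1030.3, 797 and 745 CPM in WD+F+CCl4, above both controls in every NASH mouse, and rose by 1.45 (SE 0.227, adjusted p = 0.00358). Ifitm3, which restricts virus entry from endosomes, was at 1091 and 1055 CPM in the controls, 1931, 2191 and 1857 CPM in HFD+F+CCl4 and 4085, 3024 and 2408 CPM in WD+F+CCl4, and rose by 1.28 (SE 0.234, adjusted p = 0.00774). Ifitm6 rose by 1.13 (adjusted p = 0.0308), Oas2 by 2.33 (adjusted p = 0.0334) and Oasl2 by 1.34 (adjusted p = 0.0493). The groups did not overlap for Ifitm3 or Oas2, the latter at 3.92 and 8.94 CPM in the controls and at 12.5 CPM or more in NASH. These control values of Oas2 rest on 6 and 3 UMIs. Igtp fell by 0.99 (adjusted p = 0.0463), Irf1 by 0.80 (adjusted p = 0.0309) and Stat2 by 0.70 (adjusted p = 0.0206). The summed monocyte/macrophage markers overlapped between groups in these cells, at 2924 to 3185 CPM in control and 2527 to 3436 CPM in NASH mice, and without likely doublets 5 genes were again higher and 3 lower.

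In plasmacytoid DC-like cells, the cells known for high type I interferon output, 4 of the 41 genes were lower and 0 were higher, against 4.33% and 2.93% of all genes tested. Gbp5 was at 14.9 and 42.9 CPM in the controls and between 0 and 11.4 CPM in NASH, and fell by 2.12 (adjusted p = 0.0177). Igtp was at 63.1 and 73.9 CPM in the controls and between 0 and 31.3 CPM in NASH, without overlap, and fell by 1.43 (SE 0.278, adjusted p = 0.00432). The values of 0 are those of HFD+F+CCl4 replicate 1, which gave 20 of these cells. Gbp7 fell by 1.32 (adjusted p = 0.0263) and Irf1 by 0.76 (adjusted p = 0.0112). Without likely doublets Gbp7 (adjusted p = 0.0601) and Igtp (adjusted p = 0.0766) no longer passed.

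B-like cells showed mostly increases, with 8 of 40 tested genes higher and 1 lower, against 6.14% and 4.33% of all genes tested. Ifi204, a DNA-binding protein of the HIN-200 family, was at 8.72 and 15.6 CPM in the controls, 82, 56 and 36.5 CPM in HFD+F+CCl4 and 118, 73.1 and 64.7 CPM in WD+F+CCl4, above both controls in every NASH mouse, and rose by 3.03 (SE 0.356, adjusted p = 0.000102). Rsad2 rose by 2.45 (adjusted p = 0.03), Oas2 by 2.14 (adjusted p = 0.015), Oasl2 by 2.05 (adjusted p = 0.0163) and Rtp4 by 1.84 (adjusted p = 0.0113). Some of these rest on few molecules, with 23 and 1 UMIs of Rsad2 and 17 and 5 of Oas2 in the controls. HFD+F+CCl4 replicate 3 gave 32 B-like cells, with 3 and 2 UMIs of these 2 genes. Ifitm2 was at 66.7 and 114 CPM in the controls, 117, 169.7 and 212 CPM in HFD+F+CCl4 and 378, 274 and 217 CPM in WD+F+CCl4 and rose by 1.54 (SE 0.298, adjusted p = 0.00391), Ifitm3 rose by 1.51 (adjusted p = 0.0209), and Slfn5 by 1.23 (adjusted p = 0.037). Irf1 fell by 0.75 (adjusted p = 0.0476). The 13 monocyte/macrophage markers stood at 616 to 1802 CPM in control and 1942 to 5331 CPM in NASH B-like cells. Without likely doublets 1 of the 41 genes, Ifi204, still passed, with a log2 fold change of 2.41 (adjusted p = 0.00679).

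The remaining types gave few calls. In neutrophil-like cells Cmpk2 was at 112 and 118 CPM in the controls and between 25.3 and 59.6 CPM in NASH, and it fell by 1.41 (SE 0.312, adjusted p = 0.0233) as the 1 lower gene of 40 tested, against 2.42% of all genes lower and 2.15% higher. Without likely doublets its log2 fold change was -1.12 (adjusted p = 0.103), and 0 genes passed with edgeR. Control replicate 2 gave 20 neutrophil-like cells. In cholangiocyte-like cells Irgm1 was at 153 and 90.3 CPM in the controls and between 32.2 and 53.3 CPM in the 5 NASH mice measured, and it fell by 1.68 (SE 0.341, adjusted p = 0.0386) as the 1 lower gene of 35, against 0.517% of all genes lower and 0.297% higher. Its control values rest on 47 and 4 UMIs from 44 and 31 cells. In endothelial-like cells 0 of 40 genes passed with edgeR, against 1.03% of all genes higher and 2.38% lower, with 6 at an unadjusted p under 0.05 and 1 passing with DESeq2. The shares of all genes at the unadjusted cut and with DESeq2 are not given here.

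Of the 41 genes, 20 passed for the mean of both models in at least 1 cell type and 21 in none, and 22.4% of all genes tested in at least 1 type did so. The 21 included all 3 Ifit genes, Mx1 and Mx2, which encode GTPases that trap viral nucleoproteins, Isg15 with the gene of its protease, Usp18, and the factors Irf7 and Irf9. The values of control and NASH mice overlapped in the Isg15 and Ifit3 examples given here, but not for all of the 21. In monocyte/macrophage-like cells every NASH mouse lay below both controls for Mx2, Irf9, Gbp3 and Isg20 (16.1% of all genes). There Ifi44 lay above both controls in every NASH mouse (24.0% of all genes). In neutrophil-like cells Irf7 and Ifi44 were among those that did so (21.9%). These control values rest on few molecules, with 9 and 1 UMIs of Ifi44 in monocyte/macrophage-like cells. In neutrophil-like cells the controls had 0 and 0 UMIs of Ifi44 and 42 and 1 of Irf7, and control replicate 2 gave 20 of these cells. Irf9 and Gbp3 passed as lower within 1 monocyte/macrophage-like cluster alone. Isg15 in monocyte/macrophage-like cells was at 47.1 and 152 CPM in the controls, 44.5, 52.8 and 58.8 CPM in HFD+F+CCl4 and 92.8, 81.3 and 64.1 CPM in WD+F+CCl4. Ifit3 was at 76.8 and 129 CPM in the controls, 32, 40.2 and 23 CPM in HFD+F+CCl4 and 100.5, 52 and 36.3 CPM in WD+F+CCl4, so 1 WD+F+CCl4 mouse lay between the controls. Isg15 in T/NK-like cells was at 36.4 and 96.9 CPM in the controls and between 21.8 and 56.7 CPM in the NASH mice.

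The other genes of the pathway, 88 found in the matrix, were counted in the same fits. In monocyte/macrophage-like cells 4 of 77 tested were higher and 15 lower, and in T/NK-like cells 3 of 75 were higher and 13 lower. Over all genes tested the shares higher and lower were 5.42% and 4.95% in the former and 7.1% and 6.96% in the latter, so the higher calls among these genes were no more frequent than over all genes. The chemokines that attract T cells in response to interferon-gamma were lower in monocyte/macrophage-like cells. Cxcl10 was at 538 and 728 CPM in the controls and between 24.4 and 94.3 CPM in NASH, and fell by 3.27 (adjusted p = 0.00454). Cxcl9 was at 573 and 699.8 CPM in the controls and between 15.2 and 165 CPM in NASH, and fell by 2.70 (adjusted p = 0.0334), and Cxcl11 fell by 5.41 (adjusted p = 0.00252). Socs1, a feedback inhibitor of the receptor kinases, fell by 2.41 (adjusted p = 0.00237), the HIN-200 gene Ifi205 was lower too (adjusted p = 0.0115), the GTPase gene Tgtp1 fell by 3.85 (adjusted p = 0.0108) and the transcription factor gene Irf4 by 2.80 (adjusted p = 0.000697). Cxcl11 and Tgtp1 were scarce, at a mean log2 CPM of 1.88 and 1.59 over T/NK-like and monocyte/macrophage-like cells together. Control and NASH monocyte/macrophage-like cells lay mainly in different clusters, and values within 1 cluster alone are not given for these other pathway genes.

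Further GTPase genes were lower in T/NK-like cells, Gbp6 by 2.09 (adjusted p = 0.00492), Irgm2 by 1.40 (adjusted p = 0.00331) and Gbp9 by 1.33 (adjusted p = 0.00152). Gbp4 was lower in T/NK-like, conventional DC-like, plasmacytoid DC-like and neutrophil-like cells, with log2 fold changes of -0.94, -1.85, -1.43 and -2.43. Lgals3bp, a secreted glycoprotein, was higher in 6 types, with log2 fold changes from 0.85 in T/NK-like to 2.13 in B-like cells, and the receptor chain genes Il10rb and Ifnar1 were higher in monocyte/macrophage-like cells, by 1.77 and 0.73. In conventional DC-like cells 5 of 72 other genes were higher and 9 lower, against 4.36% and 5.25% of all genes, and Ifitm1, a neighbour of the other Ifitm genes, rose by 4.79 (adjusted p = 0.000268).

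The interferon genes on the list used here were barely sampled, apart from Ifng. Of these 10, 5 had no UMI in the 8 tested cell types, 4 had under 100 each, and Ifng, with 2852 UMIs, was the remaining one. Interferon genes outside that list were not counted. In T/NK-like cells Ifng was at 77.7 and 72.2 CPM in the controls, 115, 44.3 and 65.7 CPM in HFD+F+CCl4 and 19, 17.4 and 100.5 CPM in WD+F+CCl4. The NASH mice lay on both sides of the controls and the log2 fold change was -0.31 (adjusted p = 0.767).

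WD+F+CCl4 against HFD+F+CCl4 asked whether the models differed from each other. The summed level was higher in every WD+F+CCl4 mouse than in every HFD+F+CCl4 mouse in monocyte/macrophage-like, neutrophil-like, conventional DC-like, T/NK-like and B-like cells, but few single genes passed an adjusted test. With edgeR, 0 of the 41 genes were called in 7 of the types, where 0.0% of all genes tested were called, and 1 was called in B-like cells, where 0.204% of all genes were. The count depended on the filter on low counts. With every gene of at least 1 count in the fit, edgeR called 6 of the 41 in monocyte/macrophage-like cells (0.834% of all genes), 13 in conventional DC-like (1.39%), 7 in plasmacytoid DC-like (0.573%), 6 in neutrophil-like (0.955%), 9 in T/NK-like (0.973%), 4 in B-like (0.788%), 2 in endothelial-like (0.206%) and 2 in cholangiocyte-like cells (0.686%). All of these genes were higher in WD+F+CCl4 except 1 in neutrophil-like and 1 in B-like cells. The 1 gene called in B-like cells with the filter, Ifitm6, was at 4.97, 12.4 and 0 CPM in HFD+F+CCl4 and 94.1, 45.6 and 37.3 CPM in WD+F+CCl4 B-like cells, a log2 fold change of 2.73 (adjusted p = 0.0422). Without likely doublets its log2 fold change was 1.47 (adjusted p = 0.725), and it did not pass. By DESeq2, 2 of the 41 were called in monocyte/macrophage-like, 1 in plasmacytoid DC-like and 2 in B-like cells. The share of all genes called by DESeq2 is not given here.

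The direction was nonetheless mostly the same in these cells. In monocyte/macrophage-like cells 37 of 41 genes had a positive log2 fold change, with a median of 0.53, beside 47.6% of all genes positive, and 21 had an unadjusted p under 0.05. The positive genes numbered 36 of 40 in neutrophil-like cells (median 0.54, 15 with an unadjusted p under 0.05), 35 of 41 in conventional DC-like cells (0.43 and 18), 34 of 41 in plasmacytoid DC-like cells (0.41 and 10), 33 of 41 in T/NK-like cells (0.36 and 12) and 37 of 40 in B-like cells (0.67 and 10). In endothelial-like cells 28 of 40 were positive and in cholangiocyte-like cells 18 of 35, with medians of 0.23 and 0.04. Over all types and genes tested, 47.6% to 52.9% were positive. The share of all genes with an unadjusted p under 0.05 is not given here, so those counts have no baseline.

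The monocyte/macrophage-like cells of the models lay in different proportions in the 2 main clusters. The cluster led by Vcan and Chil3, with Ifitm6 among its leading genes, held 256 of 3420, 432 of 3311 and 858 of 2940 cells in HFD+F+CCl4 and 2361 of 4159, 1607 of 3764 and 1051 of 3671 in WD+F+CCl4, a larger share in WD+F+CCl4 replicates 1 and 2 than in any HFD+F+CCl4 mouse. Within that cluster alone 37 of 41 genes were again positive, with a median of 0.42 beside 49.7% of all genes positive, 17 had an unadjusted p under 0.05, and 0 passed with edgeR, as for all genes (0.0%). The Ifitm genes differed little there, with log2 fold changes of 0.30 for Ifitm3, 0.04 for Ifitm6 and 0.02 for Ifitm2, while Irf7 was at 0.96 and Ifi27l2a at 1.04. Within the Cd8a cluster of T/NK-like cells 33 of 41 were positive, with a median of 0.37, and 0 passed (0.0% of all genes). The share of all genes with an unadjusted p under 0.05 is not given for these clusters.

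WD+F+CCl4 replicate 1 had the highest summed level in all 7 types in which it had enough cells. Leaving it out lowered the medians to 0.35 in monocyte/macrophage-like, 0.30 in neutrophil-like, 0.26 in conventional DC-like and T/NK-like, 0.11 in plasmacytoid DC-like and 0.28 in B-like cells. The genes with an unadjusted p under 0.05 then numbered 6 in monocyte/macrophage-like, 5 in neutrophil-like, 4 in conventional DC-like, T/NK-like and plasmacytoid DC-like and 3 in B-like cells. These counts also lack the share of all genes at that cut. The positive genes remained the majority, at 37 of 41 in monocyte/macrophage-like and 26 of 40 in plasmacytoid DC-like cells.

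**Figure D3:**
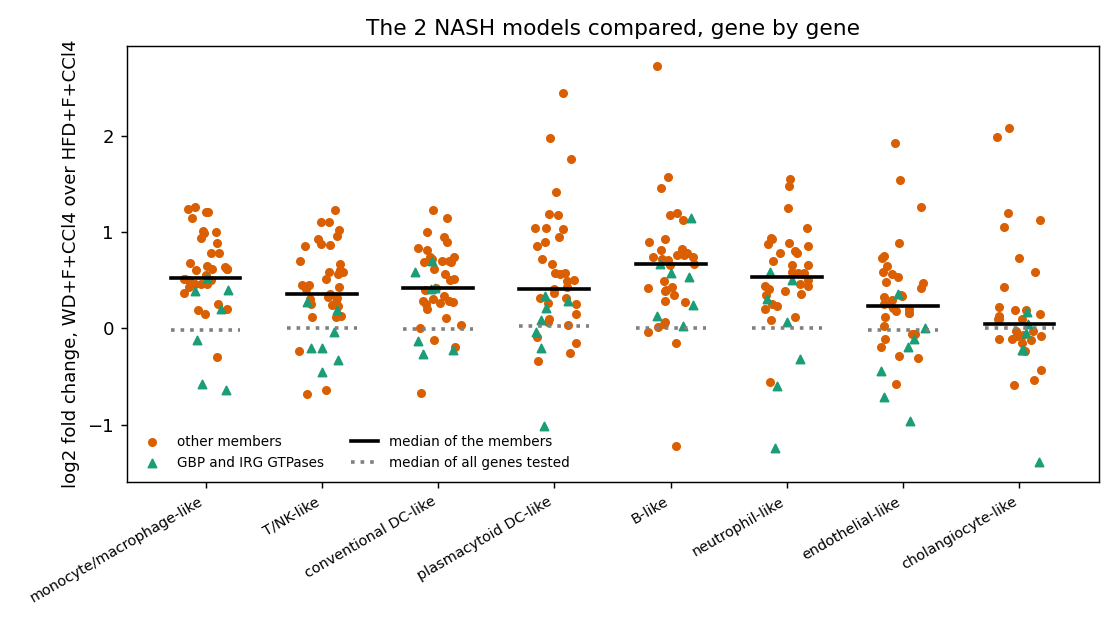
Log2 fold change of each interferon-stimulated gene in WD+F+CCl4 against HFD+F+CCl4 (points, 1 per gene) for the 8 tested cell types, with the median as a line. Most points lie above 0, with medians from 0.04 in cholangiocyte-like to 0.67 in B-like cells.

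Ifi27l2a had positive log2 fold changes in all 8 types, from 0.76 to 1.99, and Irf7 did so too, from 0.58 to 1.27. In monocyte/macrophage-like cells Ifi27l2a was at 874, 1481 and 1241 CPM in HFD+F+CCl4 and 3829, 2810.2 and 1632 CPM in WD+F+CCl4, without overlap. Irf7 was at 189.9, 187 and 122 CPM in HFD+F+CCl4 and 575, 380.4 and 224 CPM in WD+F+CCl4, also without overlap. Both control mice, at 132 and 190.4 CPM, lay within the HFD+F+CCl4 values or at their edge. The GTPases were mixed, with Gbp2 and Gbp5 positive in 1 type each and Irgm1 and Ifi47 positive in 7 of 8. The transcription factor gene Irf1 was positive in 1.

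Counting genes whose WD+F+CCl4 values all exceeded all HFD+F+CCl4 values, 3 against 3 mice except in endothelial-like and cholangiocyte-like cells with 2 against 3, gave 11 of 41 in monocyte/macrophage-like cells, against 5.37% of all genes, among them Ifi27l2a, Irf7, Ifitm3, Isg15 and Oas3. The counts were 6 of 41 in conventional DC-like cells (4.45% of all genes), 3 of 41 in plasmacytoid DC-like cells (4.63%), 4 of 40 in neutrophil-like cells (2.88%), 2 of 41 in T/NK-like cells (2.11%), 6 of 40 in B-like cells (8.61%), 8 of 40 in endothelial-like cells (5.46%) and 1 of 35 in cholangiocyte-like cells (4.62%). The genes with all WD+F+CCl4 values below numbered 0 of 41 in monocyte/macrophage-like (6.09% of all genes), 0 in conventional DC-like (6.19%), 2 in plasmacytoid DC-like (9.62%), 0 in neutrophil-like (5.77%), 1 in T/NK-like (10.8%), 1 in B-like (5.18%), 1 in endothelial-like (7.92%) and 3 of 35 in cholangiocyte-like cells (10.5%), and Irf1 was among them in plasmacytoid DC-like and endothelial-like cells. None of the other pathway genes passed the adjusted edgeR test in this comparison.

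Each model was also set against the same 2 controls, so the values of both models are not independent. The lower calls on the GTPases and Irf1 were present in both, and most of the higher calls were in WD+F+CCl4. In monocyte/macrophage-like cells 10 genes were lower and 0 higher in HFD+F+CCl4, where 3.48% and 4.02% of all genes were, and 5 were lower and 2 higher in WD+F+CCl4, where 3.77% and 4.47% were. Igtp fell by 1.53 in HFD+F+CCl4 (adjusted p = 0.00365) and by 1.14 in WD+F+CCl4 (adjusted p = 0.00859). The 2 higher genes of WD+F+CCl4 were Bst2, by 1.20 (adjusted p = 0.0213), and Irf7, by 1.46 (adjusted p = 0.048).

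Among T/NK-like cells 4 genes were lower and 0 higher in HFD+F+CCl4 (2.74% and 4.3% of all genes), and 5 were lower and 3 higher in WD+F+CCl4 (5.18% and 5.95%). Igtp fell by 1.88 (adjusted p = 0.00148) and 2.08 (adjusted p = 0.000758) in the respective models. In conventional DC-like cells 1 gene was higher and 1 lower in HFD+F+CCl4 (1.85% and 2.22%), and 7 were higher and 2 lower in WD+F+CCl4 (4.52% and 5.03%), the 7 being Ifitm2, Ifitm3, Ifitm6, Oas2, Oasl2, Rtp4 and Usp18. In plasmacytoid DC-like cells 0 were higher and 1 lower in HFD+F+CCl4 (1.23% and 2.14%), and 4 were higher and 3 lower in WD+F+CCl4 (3.99% and 4.32%). The 4 were Ifi204, Ifi27l2a, Ifitm3 and Ifitm6, the 3 were Gbp5, Igtp and Irf1.

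In B-like cells 1 of 40 genes was higher and 0 lower in HFD+F+CCl4 (3.64% and 1.73%), and 14 were higher and 0 lower in WD+F+CCl4 (6.58% and 4.13%). Ifi204 passed in both, with 2.78 in HFD+F+CCl4 (adjusted p = 0.00114) and 3.27 in WD+F+CCl4 (adjusted p = 5.65e-05), and the others of WD+F+CCl4 included Ifit1, Ifit3, Irf7, Oas1a and Ifih1, which encodes the RNA sensor MDA5. In neutrophil-like cells 0 were higher and 1 lower in HFD+F+CCl4 (1.4% and 1.23%), and 1 was higher and 0 lower in WD+F+CCl4 (2.19% and 2.28%). In endothelial-like and cholangiocyte-like cells 0 genes were called by edgeR in either model, against 0.565% and 0.172% of all genes higher and 1.18% and 0.297% lower in HFD+F+CCl4, and 0.315% and 0.249% higher and 1.03% and 0.335% lower in WD+F+CCl4. At an unadjusted p under 0.05 the members numbered 7 and 5 in endothelial-like cells and 5 and 8 in cholangiocyte-like cells, for HFD+F+CCl4 and WD+F+CCl4 in turn. The shares of all genes at that unadjusted cut are not given here. A call in 1 model and not in the other does not show that they differ, and the test between them is the one given above for WD+F+CCl4 against HFD+F+CCl4.

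Whether NASH moved a gene differently in T/NK-like and monocyte/macrophage-like cells was tested directly, in 1 model with the mouse as a term. Of the 41 genes, 6 had a more positive and 1 a more negative log2 fold change in T/NK-like cells, against 5.21% and 2.41% of all genes tested. The differences were 2.91 for Ifitm6 (adjusted p = 0.00151), 2.04 for Ifitm3 (adjusted p = 0.00218) and 1.59 for Ifitm2 (adjusted p = 0.00584). Gbp5 fell in both types and by less in T/NK-like cells, with a difference of 1.72 (adjusted p = 0.00289). Ifi204 differed by 1.47 (adjusted p = 0.00634), Gbp3 by 0.72 (adjusted p = 0.0433) and Bst2 by -0.89 (adjusted p = 0.00973). Without likely doublets, 1 gene was more positive and 2 were more negative, and the differences of Ifitm6, Ifitm3 and Ifitm2 became 1.53, 0.73 and 0.45, none past the threshold. Within 1 cluster of each type, Ifitm2 alone passed, with a difference of 2.06 (adjusted p = 0.00898).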

How the data were processed

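Whole livers of 8 mice were profiled by droplet-based 3' single-cell RNA sequencing, 1 library per mouse. The authors deposited raw UMI counts per gene and barcode, demultiplexed with bcl2fastq 2.20 and counted with Cell Ranger (4.0.0 in the file header) against GRCm38. The sources used here do not name the annotation release. The 41 genes and all other lists were chosen with earlier results of these data known. Barcodes were kept above 500 genes and below 25% mitochondrial UMIs, scaled to 10000 counts, and clustered with scanpy 1.11.5 (2000 variable genes without the interferon genes, 30 components, 20 neighbours, Leiden resolution 0.42). A cluster was named where at least 3 markers were detected. Doublets were not removed in the values given first, and an alternative left out the 6824 cells ranked highest by doublet score.

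Counts were summed per mouse and type where a mouse had at least 20 cells, and fitted over all mice with edgeR 4.0.16 (TMM scaling, filterByExpr with a minimum count of 10, quasi-likelihood test). The fits were tested on simulated data. Alternatives were other scalings, no filter, DESeq2 1.42.0, other cell filters and clusterings, a replicate block and leaving out each mouse. Genes called higher or lower are those with an adjusted p under 0.05. Other genes are named without passing, among them Ifi27l2a and Irf7 between the models, Ifng in T/NK-like cells and some genes whose groups did not overlap. Levels by type are given for the most abundant genes of each role, and sequences for the genes called most often. The Isg15 and Ifit3 values per mouse were chosen after their values were seen. The strand setting of the counting is likewise unnamed, so reads of overlapping or antisense genes cannot be told apart, and the close copies among the Ifitm, Gbp and Oas families may share reads.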

Additional observations from a re-analysis of the deposited data

Results flagged for a closer look

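The NASH effect differed between T/NK-like and monocyte/macrophage-like cells for 7 of the 41 genes, by a test of the difference itself. The log2 difference (T/NK-like minus monocyte/macrophage-like) was 2.04 for Ifitm3, 2.91 for Ifitm6 and 1.59 for Ifitm2, which block virus entry at membranes. It was 1.72 for Gbp5 and 0.72 for Gbp3, both guanylate-binding proteins, 1.47 for the DNA-binding protein gene Ifi204 and -0.89 for Bst2, the tetherin gene. In T/NK-like cells Ifitm3 was at 169 and 371 CPM in the controls, 316, 418 and 454 CPM in HFD+F+CCl4 and 924, 900.0 and 392 CPM in WD+F+CCl4. Most of these differences depended on which cells were used. Without likely doublets they were 1.53 for Ifitm6, 0.73 for Ifitm3, 0.45 for Ifitm2, 0.54 for Gbp3 and 0.25 for Ifi204, none past the threshold, whereas Gbp5 at 1.62 and Bst2 at -1.24 still passed. Within 1 cluster of each type only Ifitm2 passed. Gbp3 at -0.11 (SE 0.28) and Bst2 at 0.0023 (SE 0.23) changed sign there, but both estimates were smaller than their SE and show no difference in either direction. Monocyte/macrophage markers were higher in the T/NK-like cells of NASH mice, and their part in these differences was not tested.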

How the results depend on the processing

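Calls are counts of the 41 genes at an adjusted p under 0.05. Except where printed above, the shares of all genes called under the alternative settings are not given. Counts under those settings, here and above, therefore have no baseline, and a rise or fall in them is not a result about the 41 genes. Of 48 calls in all tests, 47 were kept with RLE size factors, 44 with library size alone, 47 with no filter, 44 with DESeq2, 45 of 47 at a mitochondrial share under 10%, 47 when the interferon genes were used for clustering, 42 at resolution 0.8, 28 of 46 without likely doublets and 23 of 30 with more than 1000 genes per cell, and 0 reversed. Without control replicate 1, 8 of 48 were kept, and without control replicate 2, 20 were. In NASH against control, leaving out 1 mouse gave 0 to 11 calls in monocyte/macrophage-like, 0 to 11 in conventional DC-like, 1 to 11 in plasmacytoid DC-like, 0 to 3 in neutrophil-like, 1 to 9 in T/NK-like, 1 to 12 in B-like, 0 in endothelial-like and 0 to 2 in cholangiocyte-like cells. In WD+F+CCl4 against HFD+F+CCl4 it gave 0 to 1 in conventional DC-like, 0 to 6 in plasmacytoid DC-like, 0 to 2 in B-like, 0 to 6 in cholangiocyte-like and 0 in the other 4 types, and 1 to 8 in the test between types. With 1 control left out, the other is assumed to vary like the other groups. With no filter, NASH against control gave 17 calls in monocyte/macrophage-like, 17 in conventional DC-like, 13 in plasmacytoid DC-like, 9 in neutrophil-like, 14 in T/NK-like, 16 in B-like, 3 in endothelial-like and 4 in cholangiocyte-like cells, and WD+F+CCl4 against HFD+F+CCl4 gave 6, 13, 7, 6, 9, 4, 2 and 2 in the same order. DESeq2 gave 15 in monocyte/macrophage-like, 4 in neutrophil-like and 1 in endothelial-like cells for NASH, 2 in monocyte/macrophage-like, 1 in plasmacytoid DC-like and 2 in B-like cells between the models, and 11 between types. Without likely doublets, NASH gave 2 calls in plasmacytoid DC-like, 0 in neutrophil-like, 1 in B-like and 2 in cholangiocyte-like cells, and 3 between types, and the summed level was 2846.1 CPM in T/NK-like and 2011 CPM in B-like cells. Resolution 0.8 gave 3 in neutrophil-like cells. Within 1 cluster, T/NK-like cells gave 3 calls and the test between types gave 1. There Gbp3 at -0.11 and Bst2 at 0.0023 changed sign, with estimates smaller than their SE. HFD+F+CCl4 alone against control gave 2 calls in conventional DC-like, 1 in plasmacytoid DC-like, 4 in T/NK-like, 1 in B-like and 0 in cholangiocyte-like cells, and WD+F+CCl4 alone gave 7 in plasmacytoid DC-like, 14 in B-like and 0 in cholangiocyte-like cells. The single call between the models in B-like cells was 0 without doublets, at a mitochondrial share under 10%, with more than 1000 genes, with the interferon genes clustered and at resolution 0.8. The causes were not tested. Library size alone moved the calls over all genes from 937 higher and 919 lower to 741 and 1176 in T/NK-like cells, from 602 and 424 to 424 and 629 in B-like cells, where the median of all genes moved from 0.0039 to -0.15.

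Mice with the same replicate number did not deviate together: over 52 pairs the correlation ran from -0.46 to 0.15, with 2 above 0.1. Over 106 pairs with different numbers it ran from -0.365 to 0.49, with 20 above 0.1. The same mice recur in each cell type, so these pairs are not independent. The values of the 2 controls against any other mouse are equal with opposite sign. The replicate block, fitted for completeness, kept 28 of 41 calls and gave 3 in neutrophil-like, 4 in T/NK-like and 2 in cholangiocyte-like cells for NASH and 2 in B-like cells between the models. Fits with more than 1000 genes per cell gave no value for monocyte/macrophage-like, neutrophil-like, endothelial-like or cholangiocyte-like cells, and neither did the stricter mitochondrial filter for neutrophil-like cells, since a control had too few cells. No separate block was fitted in the test between types, whose model already has the mouse as a term.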
